A study of Mus musculus with 6 samples.

Results

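Kinesins are motor proteins that walk along microtubules, and in this comparison they are represented by all 47 protein-coding genes of the mouse whose symbols begin with Kif, Kifc or Klc followed by a number, among 47643 gene identifiers counted. The name rule was applied to symbols matched to the identifiers, with no use of measured values. It also took in Kif1bp, a protein that binds kinesins and is no motor itself. RNA was sequenced in 6 libraries from uninjured embryonic neurons of the dorsal root ganglia (CD-1 strain, day 13). In 3 libraries the cells had been treated with shUHRF1 lentivirus, which delivers a hairpin directed at Uhrf1, and in 3 with shControl lentivirus. Both groups therefore carried a virus and a hairpin, and the labels name no promoter, no dose and no time after infection. Libraries are numbered 1, 2 and 3 within a group, and nothing says that they came from separate cultures, so p-values reflect library-to-library spread that may be technical.

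Most kinesins carry cargo toward the plus ends of microtubules, which in axons means outward from the cell body. Kinesin-1 is built from a pair of heavy chains (Kif5a, Kif5b, Kif5c) and light chains (Klc genes) that bind cargo, kinesin-2 pairs Kif3a with Kif3b or Kif3c, and kinesin-3 motors such as Kif1a carry synaptic vesicle precursors. A separate group builds and separates the mitotic spindle of dividing cells, and the C-kinesins move toward minus ends. Sensory neurons have among the longest axons of the body and depend on axonal transport, and as postmitotic cells they need no spindle. UHRF1, the hairpin's target, binds hemimethylated CpG sites and recruits the maintenance DNA methyltransferase.

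The libraries held 16501723 to 20973068 gene reads in shUHRF1 and 15599776 to 22382813 in shControl. Uhrf1 itself was near the limit of detection in every library, with 2, 1 and 5 reads in shUHRF1 and 8, 6 and 5 reads in shControl, so the groups overlapped at this depth and the labels cannot be checked by it. Of 15573 genes that passed the low-count filter, edgeR's quasi-likelihood test called 24% at an adjusted p below 0.05, 11.6% higher and 12.4% lower in shUHRF1. Genes averaging at least 16 CPM (counts-per-million, on scaled library sizes) had a median log2 fold change of -0.08, and genes below 16 CPM one of 0.18. The defining markers of sensory neurons were present in every library, and 2 of 15 were called, both lower: Tubb3, a neuronal tubulin, averaged 3201 ± 692 CPM in shUHRF1 and 5378 ± 144 CPM in shControl, and Gap43, a growth cone protein, averaged 484 ± 147 CPM in shUHRF1 and 1770 ± 138 CPM in shControl (SD, n = 3 each). Among markers of other cells, 12 of 12 fibroblast markers, 8 of 12 tested glial markers and 4 of 7 tested macrophage markers were higher in shUHRF1, 1 glial marker was lower, and 1 of 4 tested endothelial markers was higher.

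Of the 47 kinesin genes, 39 passed the filter and were tested, 4 were called higher and 5 lower in shUHRF1, 30 were not called, and 8 had too few reads. The called share of the tested kinesins was 23.1%, beside 24% of all genes, and a share that close to the background is no feature of the family. The median log2 fold change of the tested kinesins was 0.06, beside 0.02 for all tested genes. The libraries of the groups did not overlap for 8 kinesin genes in the higher direction and 7 in the lower, beside 21.7% and 22.3% of all tested genes. Without shUHRF1 library 3 the calls were 2 higher and 3 lower, without shControl library 3 they were 2 higher and 4 lower, and without shControl library 1 they were 3 of each. The genes called lower were Kif13a, Kif3c, Kif16b, Kifc2 and Kifc3, and the genes called higher were Klc4, Kif26a, Kif7 and Kif15.

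**Figure D1:**
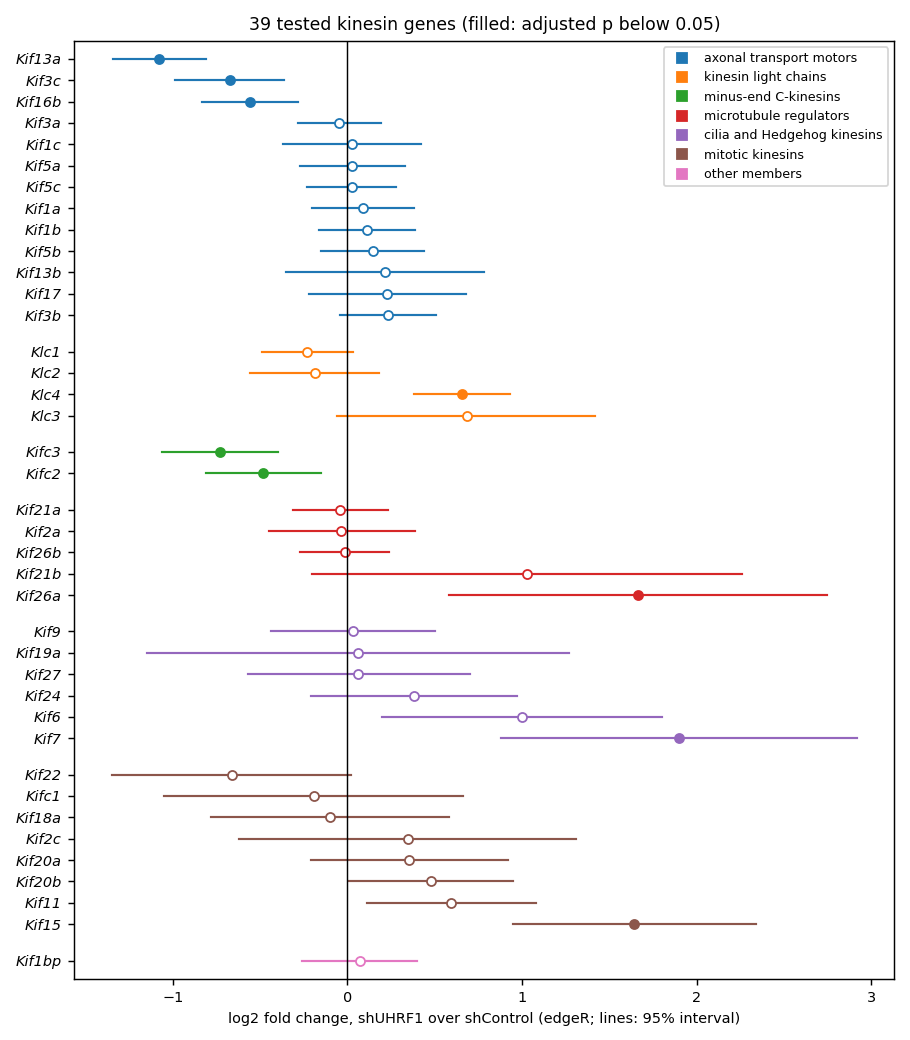
Log2 fold change of shUHRF1 over shControl for the 39 tested kinesin genes, grouped by role (points: edgeR estimate; lines: 95% interval; filled: adjusted p below 0.05). Most axonal transport motors lie near 0 with short intervals, 3 of them and both C-kinesins are filled to the left, and the mitotic and ciliary genes have wide intervals.

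The 250 bases before the RefSeq transcription start are shown for called genes in each direction, because CpG sites are the substrate on which UHRF1 acts and these promoters differ widely in them. Capitals mark each CpG. Bases that lie in an annotated exon of any gene are left out, which shortened the windows of Kif13a and Klc4. All 4 are read 5′ to 3′ on the gene's own strand, from RefSeq on GRCm38.p6.
Kif13a: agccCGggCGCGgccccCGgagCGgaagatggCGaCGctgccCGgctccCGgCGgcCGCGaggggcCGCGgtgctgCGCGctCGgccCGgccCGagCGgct
Kif3c: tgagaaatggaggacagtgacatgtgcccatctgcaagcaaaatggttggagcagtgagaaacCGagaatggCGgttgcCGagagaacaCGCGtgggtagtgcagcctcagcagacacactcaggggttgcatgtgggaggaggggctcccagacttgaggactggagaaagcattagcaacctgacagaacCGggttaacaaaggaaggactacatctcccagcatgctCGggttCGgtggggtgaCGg
Klc4: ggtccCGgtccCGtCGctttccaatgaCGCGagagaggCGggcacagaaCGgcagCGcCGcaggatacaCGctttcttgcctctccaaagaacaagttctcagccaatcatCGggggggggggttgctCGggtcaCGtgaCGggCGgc
Kif26a: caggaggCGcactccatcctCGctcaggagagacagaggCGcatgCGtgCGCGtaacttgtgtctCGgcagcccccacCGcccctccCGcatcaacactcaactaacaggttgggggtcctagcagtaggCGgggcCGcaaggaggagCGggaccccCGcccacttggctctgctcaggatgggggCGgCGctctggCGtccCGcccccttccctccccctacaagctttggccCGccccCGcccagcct
The stretch of Kif13a is chr13:46929868-46929968 on the minus strand, and that of Kif3c is chr12:3364882-3365131 on the plus strand. The stretch of Klc4 is chr17:46646081-46646228 on the minus strand, and that of Kif26a is chr12:112145958-112146207 on the plus strand. Over the full 250 bases, Kif13a held 49 CpG sites and Kif3c 9, though both were called lower, while Klc4 held 27 and Kif26a 19. DNA methylation was not measured, and whether promoter CpG content bears on any fold change was not tested.

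Among the 13 axonal transport motors, all of them tested, 3 were lower and 10 were not called, with a median log2 fold change of 0.03. Lower calls made up 12.4% of all tested genes, and 1583 of the 7964 genes at 16 CPM or more. The most abundant motors had nearly the same level in both groups. Kif1a, the synaptic vesicle precursor motor, had 3254, 3187 and 2732 CPM in shUHRF1 libraries 1 to 3, against 3081, 2723 and 2827 CPM in shControl libraries 1 to 3. The groups overlapped, and the log2 fold change was 0.09 ± 0.13 (SE) with a 95% interval of -0.20 to 0.38 (adjusted p = 0.656, edgeR). Kif5a, the neuronal kinesin-1 heavy chain whose human mutations cause spastic paraplegia, had 2177, 2758 and 2446 CPM in shUHRF1, against 2548, 2316 and 2375 CPM in shControl. The groups overlapped here too, at 0.03 ± 0.13 on the log2 scale (interval -0.27 to 0.33, adjusted p = 0.901), and its sign turned under 6 of 16 alternative settings. Kif3a, the shared subunit of kinesin-2, had 319, 330 and 317 CPM in shUHRF1, against 356, 313 and 329 CPM in shControl. It differed by -0.05 ± 0.10 (interval -0.28 to 0.19, adjusted p = 0.789). Under upper-quartile scaling its estimate was 0.08.

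The remaining uncalled transport motors spanned log2 fold changes of 0.03 to 0.23. Kif5c, a neuron-enriched kinesin-1 heavy chain, stood at 0.03 (interval -0.23 to 0.28), and the ubiquitous heavy chain Kif5b at 0.15 (interval -0.15 to 0.44). Kif1b, which carries mitochondria and synaptic vesicle precursors, stood at 0.11 (interval -0.16 to 0.39), and Kif1c, a motor of dense core vesicles and of the Golgi, at 0.03 (interval -0.37 to 0.42). Kif3b stood at 0.23 (interval -0.04 to 0.51, adjusted p = 0.197). Kif17, a homodimeric kinesin-2 known for carrying NMDA receptor subunits in dendrites, stood at 0.23 (interval -0.22 to 0.68). Kif13b, a kinesin-3 that binds the scaffold protein Dlg1, varied most among them within shUHRF1, with 54.1, 116 and 87.2 CPM, against 68.2, 78.2 and 75 CPM in shControl, and its interval ran from -0.35 to 0.78.

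Kif13a had the largest fall among the 39 tested kinesins. It is a kinesin-3 that moves endosomal cargo such as the mannose 6-phosphate receptor toward the cell surface (chr13:46749087-46929867, minus strand). Its level was 26.8, 31.3 and 28.4 CPM in shUHRF1, against 64.2, 56.3 and 61.7 CPM in shControl. All shUHRF1 libraries were below all shControl libraries, with means of 28.8 ± 2.29 CPM in shUHRF1 and 60.8 ± 4.04 CPM in shControl (SD, n = 3 each). The log2 fold change was -1.08 ± 0.12 (SE), a 2.11-fold lower level, with an interval of -1.34 to -0.81 and an adjusted p of 0.00125 by edgeR. The call held under all 16 alternatives, with log2 fold changes between -1.20 and -0.95.

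Kif16b, another kinesin-3, binds phosphoinositides and positions early endosomes (chr2:142617474-142901531, minus strand). It had 37.2, 41.7 and 35.2 CPM in shUHRF1, against 59.7, 56.6 and 51.5 CPM in shControl, without overlap. The fall was 0.56 ± 0.12 on the log2 scale in edgeR (adjusted p = 0.0135). Without shControl library 1 the adjusted p was 0.057, and without shUHRF1 library 3 it was 0.0575.

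Kif3c, the kinesin-2 subunit that pairs with Kif3a and is known for microtubule organisation in growing sensory axons, was the most abundant kinesin called (chr12:3365132-3406494, plus strand). Its level was 300, 399 and 356 CPM in shUHRF1, against 598, 511 and 572 CPM in shControl. Every shUHRF1 library was below every shControl library, with means of 352 ± 49.9 CPM in shUHRF1 and 560 ± 44.6 CPM in shControl. The log2 fold change was -0.67 ± 0.14 (interval -0.99 to -0.36), a 1.59-fold lower level (adjusted p = 0.0115, edgeR), and the call held under all 16 alternatives. Genes on the opposite strand, among them the uncharacterised 1110002L01Rik, share exon bases with Kif3c. Summed over these genes the overlap came to 3205 bases, beside a Kif3c exon length of 7406. The strand setting of the counting is not given in the sources used here. 1110002L01Rik had 4.93 CPM in shUHRF1 and 4.25 CPM in shControl, far less than Kif3c, and was not called (adjusted p = 0.536, edgeR). Its low level does not show how reads in the shared bases were counted.

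The makeup of kinesin-2 follows from these values. Levels were divided by exon length (RPKM, that is CPM per kilobase of exon) to compare genes, and each gene was taken as a share of the sum of Kif3a, Kif3b and Kif3c. Kif3c made up 21.6%, 25.6% and 23.1% in shUHRF1, against 34.7%, 32.9% and 34.0% in shControl. Kif3b made up 30.8%, 30.7% and 34.5% in shUHRF1, against 22.7%, 25.5% and 25.7% in shControl. In shUHRF1 Kif3b thus stood above Kif3c in every library, and in shControl Kif3c stood above Kif3b in every library. Kif3a held 44.6% in shUHRF1 and 41.5% in shControl. Shares of a sum are bound to each other, and no test was made on them. The RPKM of Kif3c used its full exon length, so its rank beside Kif3b depends on how the shared bases were counted. Among the kinesin-1 heavy chains the mean shares were nearly alike, with Kif5a at 56.0%, Kif5c at 37.9% and Kif5b at 6.05% in shUHRF1, against 56.4%, 38.1% and 5.54% for the same genes in shControl.

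**Figure D2:**
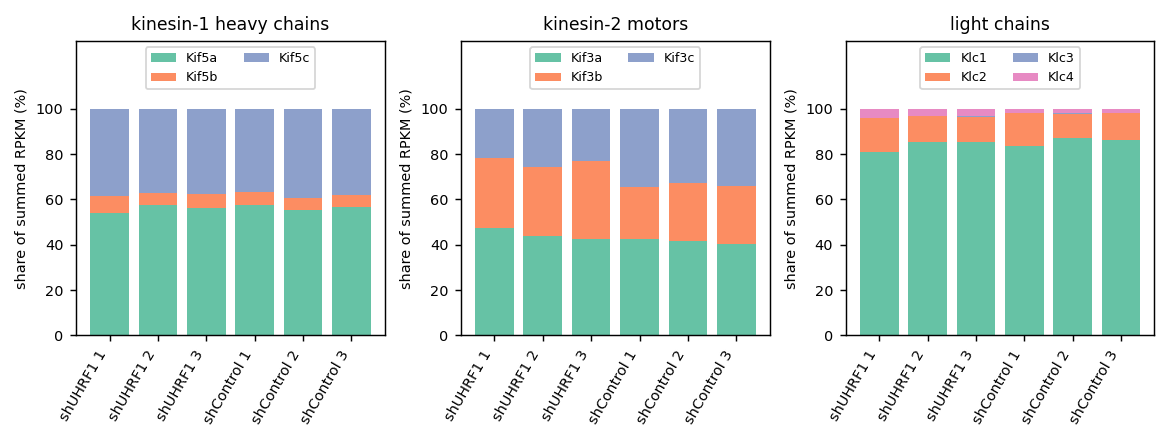
Share of each subunit in the summed RPKM of its subfamily (percent, each bar 1 library; shUHRF1 left of shControl). Kif3c takes 21.6% to 25.6% of kinesin-2 in shUHRF1 libraries and 32.9% to 34.7% in shControl libraries, while kinesin-1 heavy chain shares overlap.

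Of the 4 light chains, 1 was higher and 3 were not called, beside 11.6% of all tested genes called higher. Klc1, the neuron-enriched light chain and the highest RPKM of all 47 genes, had 1508, 1696 and 1673 CPM in shUHRF1, against 1869, 1856 and 1993 CPM in shControl. The libraries did not overlap, but the log2 fold change of -0.23 ± 0.11 was not called (interval -0.49 to 0.03, adjusted p = 0.175, edgeR). Klc2, the ubiquitous light chain, differed by -0.19 (interval -0.56 to 0.18). Klc4, a light chain known in zebrafish for branching of sensory axons, rose (chr17:46630624-46646022, minus strand). It had 42.6, 35.3 and 37.7 CPM in shUHRF1, against 24.1, 24.2 and 24.9 CPM in shControl. Every shUHRF1 library was higher, with a log2 fold change of 0.66 ± 0.12, a 1.58-fold rise (adjusted p = 0.00737), called under all 16 alternatives. As a share of summed light chain RPKM it was 3.92%, 3.03% and 3.30% in shUHRF1 and 1.85%, 1.95% and 1.84% in shControl, while Klc1 averaged 83.9% in shUHRF1 and 85.7% in shControl. Klc3, known from sperm tails, was at 2.16 to 4.41 CPM in shUHRF1 and 1.82 to 2.40 CPM in shControl and was not called (0.68 ± 0.32, adjusted p = 0.161). Without shUHRF1 library 1 it was called, at 0.93 with an adjusted p of 0.0427.

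Both C-kinesins outside the mitotic group, which move toward minus ends, were lower, beside 12.4% of all tested genes. Kifc2, which carries vesicles in neurons (chr15:76659858-76668196, plus strand), had 109, 154 and 121 CPM in shUHRF1, against 188, 178 and 171 CPM in shControl, without overlap. Its log2 fold change was -0.48 ± 0.14 with an adjusted p of 0.0433 by edgeR, and 8 of 16 alternatives did not call it. Among these were upper-quartile scaling (adjusted p = 0.11), the offset for GC content and length (0.124), the stricter filter (0.0664), and the removal of any single library other than shUHRF1 library 2 (0.0831 to 0.137). Its opposite-strand neighbour Cyhr1, with which it shares 163 exon bases, stood at -0.27 (adjusted p = 0.104). Kifc3, known for work at cell junctions and in apical transport of epithelia (chr8:95099828-95202812, minus strand), had 17.8, 23.0 and 20.2 CPM in shUHRF1, against 36.9, 31.0 and 33.1 CPM in shControl. The groups did not overlap, and the log2 fold change was -0.73 ± 0.14 (interval -1.06 to -0.40, adjusted p = 0.00959), a call that held under all 16 alternatives.

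**Figure D3:**
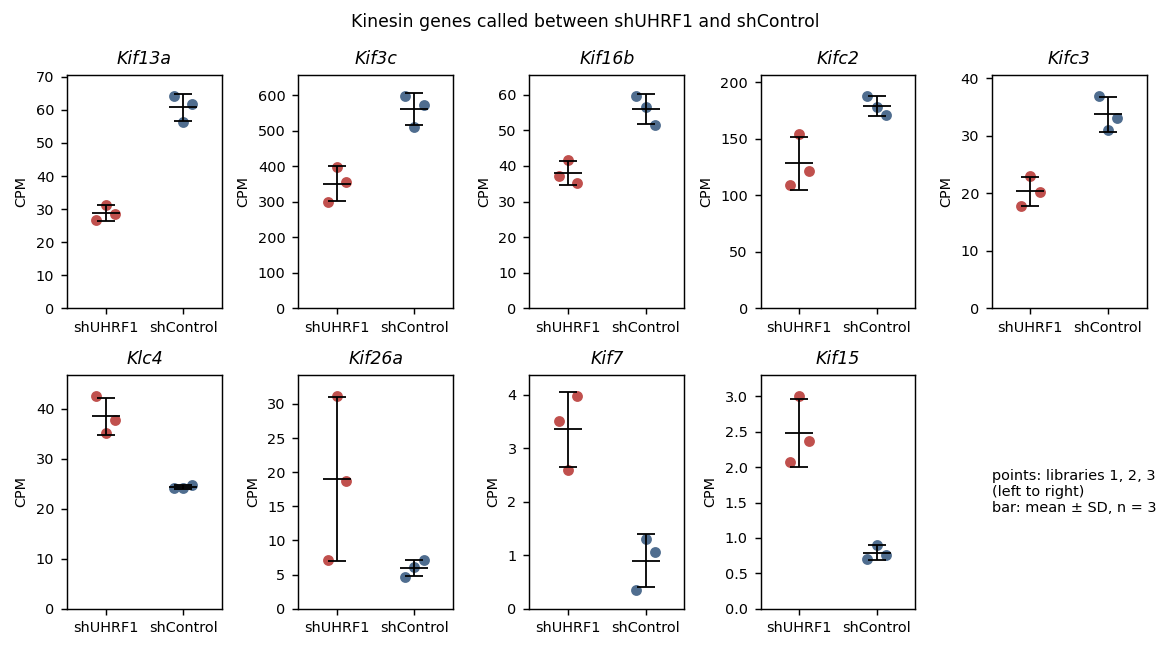
CPM on TMM-scaled library sizes in each library for the 9 called kinesin genes (points: libraries; bars: mean ± SD, n = 3 each; shUHRF1 left of shControl; each panel starts at 0). The panels show no overlap between the groups for each gene, with Kif26a spread from 7.18 to 31.1 CPM within shUHRF1.

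Of the 5 kinesins grouped as regulators of microtubules, 1 was higher and 4 were not called, beside 11.6% of all tested genes called higher. Kif2a, which takes tubulin off microtubule ends and limits axon branching, differed by -0.03 (interval -0.45 to 0.39). Kif21a, which restrains microtubule growth, differed by -0.04 (interval -0.31 to 0.23) at 782 to 855 CPM in shUHRF1 and 752 to 908 CPM in shControl. Kif26b, an atypical kinesin, differed by -0.01 (interval -0.27 to 0.24), against its relative Kif26a, which was called. Kif21b was low and uneven, with 13.5, 2.30 and 9.83 CPM in shUHRF1, against 3.6, 4.27 and 4.74 CPM in shControl. Its estimate of 1.03 ± 0.53 was not called (adjusted p = 0.2, edgeR), and without shUHRF1 library 2 it was called, at 1.45 with an adjusted p of 0.00582, as it was in libraries numbered 1 and 3 (0.0202).

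Kif26a, an atypical kinesin without motor activity that dampens GDNF-Ret signalling in enteric neurons, was the most variable of the called genes (chr12:112146208-112181747, plus strand). It had 7.18, 31.1 and 18.7 CPM in shUHRF1, against 4.65, 6.15 and 7.08 CPM in shControl. The lowest shUHRF1 library lay just above the highest shControl library. The log2 fold change was 1.67 ± 0.47 (interval 0.58 to 2.75, adjusted p = 0.0372, edgeR). The call was lost in 7 of 16 alternatives. Without shUHRF1 library 2 the log2 fold change was 1.1 (adjusted p = 0.0834), limma-voom gave an adjusted p of 0.11, and the removal of shUHRF1 library 3 or of any shControl library gave 0.0897 to 0.125. Summed macrophage markers were 15.4, 39.5 and 23.0 CPM in the same shUHRF1 libraries and 11.2, 5.50 and 8.90 CPM in the shControl libraries. Other genes ordered the shUHRF1 libraries alike. Summed glial markers were 183, 585 and 467 CPM there, and the neuron marker Avil was at 307, 768 and 639 CPM. The part of any of these in the Kif26a values was not tested.

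Cilia and Hedgehog kinesins comprised 6 tested genes with low levels. Of these, 1 was higher and 5 were not called, beside 11.6% of all tested genes called higher. Kif7, which organises the tip of the primary cilium and regulates Gli proteins of the Hedgehog pathway, rose (chr7:79698098-79715720, minus strand). It had 3.50, 2.59 and 3.97 CPM in shUHRF1, against 0.35, 1.29 and 1.05 CPM in shControl, from 78, 44 and 82 reads in shUHRF1 and 6, 20 and 22 reads in shControl. The groups did not overlap, at 1.90 ± 0.44 on the log2 scale (interval 0.88 to 2.92, adjusted p = 0.0186, edgeR). The adjusted p was 0.0609 without shControl library 3 and 0.0697 without shUHRF1 library 3. Kif7 shares 928 exon bases with other genes, among them Ticrr, which was at 0.28 CPM in shUHRF1 and 0.39 CPM in shControl. Kif6, a motor of motile cilia, stood at 1 ± 0.35 without overlap and was not called (adjusted p = 0.0714), though a fit with the replicate number as a block called it (adjusted p = 0.0381) and the block with the GC and length offset did not (0.0535). Kif9, Kif19a, Kif27 and Kif24 stood between 0.03 and 0.38.

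Mitotic kinesins were scarce. The 14 genes together had 480, 376 and 473 reads in shUHRF1, against 272, 286 and 389 reads in shControl. That was 0.148%, 0.137% and 0.155% of all kinesin reads in shUHRF1, against 0.1%, 0.125% and 0.123% in shControl. By comparison, Kif1a, Kif1b, Kif5a, Kif5c and Klc1 held 76.0% to 77.5% of kinesin reads in shUHRF1 and 74.5% to 76.0% in shControl. In summed RPKM the 13 transport motors reached 1276 to 1430 in shUHRF1 and 1277 to 1370 in shControl, and the mitotic genes 3.51 to 3.68 in shUHRF1 and 2.76 to 3.25 in shControl.

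Of the 8 mitotic kinesins tested, 1 was higher and 7 were not called, beside 11.6% of all tested genes called higher. The other 6 of the 14 had too few reads. Kif15, a spindle motor that backs up Kif11, was the one called (chr9:122951046-123018733, plus strand). It had 2.07, 3 and 2.37 CPM in shUHRF1, against 0.70, 0.91 and 0.77 CPM in shControl, from 46, 51 and 49 reads in shUHRF1 and 12, 14 and 16 reads in shControl. The groups were well apart, at 1.64 ± 0.30 on the log2 scale (interval 0.95 to 2.34, adjusted p = 0.00782, edgeR), and the call held under all 16 alternatives. In rat sympathetic neurons Kif15 is also known to restrain axon growth, so it is not a marker of division alone.

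Kif11, the motor that pushes spindle poles apart, had 4.36, 4.83 and 4.36 CPM in shUHRF1, against 2.79, 3.37 and 2.82 CPM in shControl. The libraries did not overlap, yet 0.59 ± 0.21 was not called (interval 0.11 to 1.08, adjusted p = 0.0776, edgeR), and of the alternatives only upper-quartile scaling called it (adjusted p = 0.0474). Kif20a, a motor of the cytokinetic midzone, had 3.46, 2.94 and 3.34 CPM in shUHRF1, against 2.03, 2.72 and 2.87 CPM in shControl. Its shUHRF1 libraries were all higher by a small margin, and 0.35 ± 0.25 was not called (interval -0.21 to 0.92, adjusted p = 0.339). It shares 1271 of its exon bases with Cdc23, a gene at 79.7 CPM in shUHRF1 and 75.9 CPM in shControl, so with an unknown strand setting its few reads cannot be told apart from those of Cdc23. Kif20b stood at 0.48 ± 0.20 (adjusted p = 0.126), and Kif22, a chromosome arm motor, at -0.66 ± 0.30 (adjusted p = 0.145). Kif2c, Kif18a and Kifc1 stood at 0.35, -0.10 and -0.19.

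Among the genes below the filter, Kif23, the midzone motor of the centralspindlin complex, had 15, 8 and 14 reads in shUHRF1, against 1, 3 and 4 reads in shControl. The ratio of reads corrected for library size was 4.14, and its 95% interval, for counting error alone, ran from 1.9 to 10.3. With no filter, edgeR gave an adjusted p of 0.0363. It passed the filter in 5 alternatives: its adjusted p was 0.033 without shUHRF1 library 2 and 0.0483 in libraries numbered 1 and 3, but 0.0563 to 0.103 without each of the 3 shControl libraries in turn. Kif4, a chromokinesin, had 5, 14 and 10 reads in shUHRF1, against 4, 4 and 8 in shControl. Kif14, Kif18b and Kifc5b had at most 10 reads in any library, as did Kif28, which had 4, 3 and 4 reads in shUHRF1, against 1, 0 and 0 in shControl. Kif2b and Kif12 had no read in any library.

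**Figure D4:**
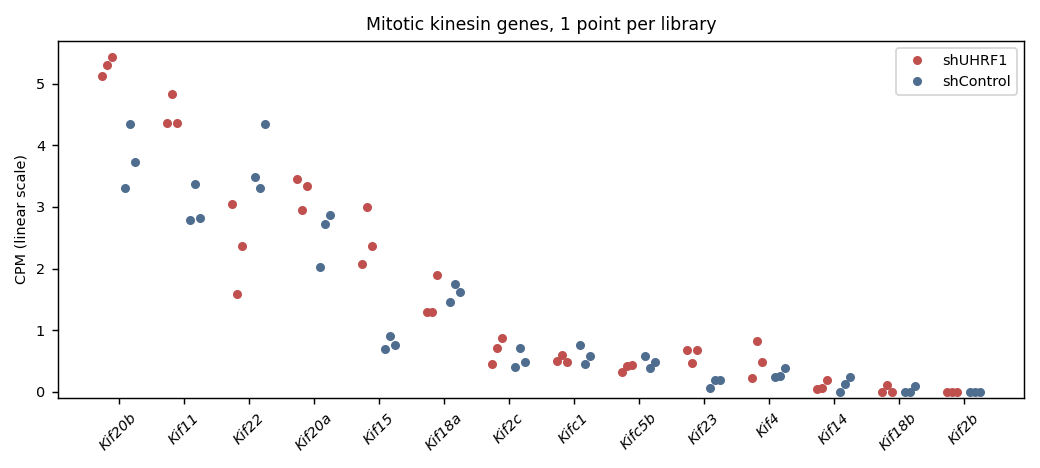
CPM of the mitotic kinesin genes in each library (points: libraries, shUHRF1 left of shControl; linear axis). All lie below 6 CPM, and Kif11, Kif15, Kif20a, Kif20b and Kif23 have every shUHRF1 library above every shControl library, while Kif22 has every one below.

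The libraries of the groups did not overlap for 4 of the 8 tested mitotic kinesins in the higher direction and for 1, Kif22, in the lower, beside 21.7% and 22.3% of all tested genes. The mitotic kinesins had a median log2 fold change of 0.35 and the transport motors one of 0.03, and the difference was not tested. All tested mitotic kinesins averaged below 16 CPM, where 1067 genes of 7609 were called higher and 345 lower, against 740 higher and 1583 lower among the 7964 genes at or above that level. Markers of glia and fibroblasts, cells that can divide, moved in the same libraries: summed fibroblast markers were 854 to 1178 CPM in shUHRF1 and 577 to 678 CPM in shControl. Most of that sum was Vim, at 687 to 956 CPM in shUHRF1 and 567 to 666 CPM in shControl, and the other 11 fibroblast markers summed to 104 to 222 CPM in shUHRF1 and 9.81 to 12.3 CPM in shControl. By contrast, summed glial markers were 183 to 585 CPM in shUHRF1 and 543 to 642 CPM in shControl. The glial marker genes Erbb3, Fabp7 and Kcnj10 had log2 fold changes of 2.64 to 3.27 and were higher, while Mbp, also a glial marker, was at 70.0 CPM in shUHRF1 and 135 CPM in shControl (adjusted p = 0.0217) and was lower. The fibroblast markers Lum and Fap and the glial marker Foxd3 had no read in shControl library 2, and the glial marker Gfap had none in shControl library 3. The macrophage markers Cx3cr1 and Itgam had none in 2 or more libraries. In bulk RNA, fewer cells of a type and less RNA per cell cannot be told apart, and the part of these cells in the kinesin values was not tested.

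Of 26 other spindle and division genes listed, 17 were tested, 2 were higher, 2 lower and 13 not called, with a median log2 fold change of -0.21. That share called was close to the 24% of all tested genes. Racgap1, the partner of Kif23 in centralspindlin, was at 24.0 ± 2.04 CPM in shUHRF1 and 14.7 ± 1.29 CPM in shControl (adjusted p = 0.0101, edgeR). Ccnb2, a mitotic cyclin, was at 1.61 ± 0.79 CPM in shUHRF1 and 0.47 ± 0.10 CPM in shControl (adjusted p = 0.0322). Aurka, a spindle pole kinase, was at 0.96 ± 0.20 CPM in shUHRF1 and 3.98 ± 0.31 CPM in shControl (adjusted p = 0.00243). Prc1, the midzone crosslinker that binds several mitotic kinesins, was at 2.57 ± 0.33 CPM in shUHRF1 and 4.81 ± 0.44 CPM in shControl (adjusted p = 0.0224).

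Kinesin adaptors link the motors to their cargo. Of 40 genes for kinesin adaptors and regulators, all tested, 9 were lower, 4 higher and 27 not called, with a median log2 fold change of -0.13. Among all tested genes 12.4% were lower and 11.6% higher. Most of the adaptors averaged at least 16 CPM. At that level 1583 of 7964 genes were lower and 740 higher, with a median log2 fold change of -0.08. Trak2, which links kinesin-1 to mitochondria, was at 165, 185 and 176 CPM in shUHRF1, against 335, 301 and 286 CPM in shControl, a fall of 0.81 ± 0.11 on the log2 scale (adjusted p = 0.00267, edgeR). Ppfia3, a liprin that binds Kif1a, was at 105, 111 and 85.3 CPM in shUHRF1, against 200, 159 and 193 CPM in shControl (adjusted p = 0.00513). Grip1, which steers Kif5 to dendrites, rose to 91.4, 73.9 and 78.3 CPM in shUHRF1, against 46.7, 39.6 and 47.4 CPM in shControl (adjusted p = 0.0038). Fyco1, which couples late endosomes and autophagosomes to kinesin-1, rose to 16.5, 17.2 and 14.2 CPM in shUHRF1, against 8.13, 7.12 and 5.98 CPM in shControl (adjusted p = 0.0039).

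Cytoplasmic dynein and dynactin, the machinery of return transport, had 5 of 21 tested genes lower, none higher and 16 not called. Their median log2 fold change was -0.08. The share called was close to the 24% of all tested genes called in either direction. Of all tested genes 12.4% were lower, and at 16 CPM or more 1583 of 7964 were. Actr1a, the actin-related filament protein of dynactin, was at 163, 199 and 177 CPM in shUHRF1, against 633, 596 and 573 CPM in shControl, a fall of 1.74 ± 0.12 on the log2 scale (adjusted p = 0.000337, edgeR). Ndel1, a dynein regulator, was at 76.7, 60.5 and 69.1 CPM in shUHRF1, against 229, 198 and 198 CPM in shControl (fall of 1.60 ± 0.13, adjusted p = 0.000533). The dynein light chains Dynlrb1 and Dynll1 fell by 0.61 and 0.40 (adjusted p = 0.00672 and 0.0217). Actr1a and Ndel1 had larger log2 fold changes than any of the 13 axonal transport kinesins.

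Per length, the same genes led the family in both groups. Klc1 led with 399 RPKM in shUHRF1 and 468 RPKM in shControl. In shUHRF1, Kif5a followed with 352 RPKM, Kif1a with 328, Kif5c with 238, Kif1b with 159 and Kif21a with 126. In shControl the order was the same, with 345 RPKM for Kif5a, 308 for Kif1a, 233 for Kif5c, 147 for Kif1b and 130 for Kif21a. The mitotic kinesins with the highest RPKM were Kif20b in shUHRF1, at 0.759, and Kif22 in shControl, at 0.757. The whole family took 1.54% to 1.66% of gene reads in shUHRF1 and 1.42% to 1.48% in shControl. On TMM-scaled library sizes its summed CPM overlapped, at 14602 to 16163 in shUHRF1 and 14800 to 15765 in shControl.

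**Figure D5:**
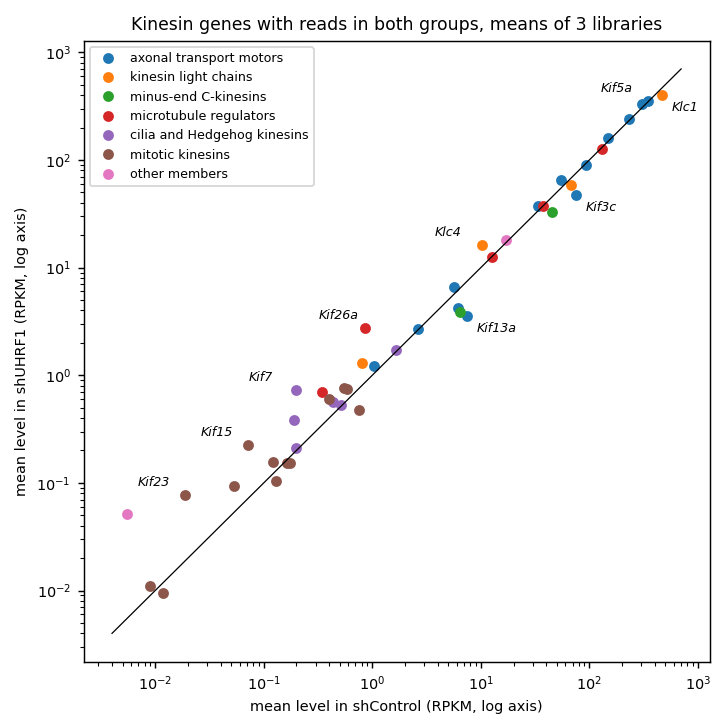
Mean RPKM of each kinesin gene with reads in both groups, shUHRF1 on the vertical axis and shControl on the horizontal axis (both log axes; means of 3 libraries; line: equal levels). Transport motors and light chains fill the upper right, mitotic genes the lower left, and Kif3c and Kif13a lie below the line.

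In the RefSeq promoters, 36 of the 47 kinesin genes had an entry, with 1 start taken per gene. These windows of 250 bases held a median of 22 CpG sites, beside 16 for tested genes, 13 for all genes called higher and 18 for all called lower. The word TTTGAA, the core of the cell-cycle homology region, was searched on both strands and lay in 5 of 13 mitotic kinesins (38.5%), 0 of 10 transport motors and 10% of tested genes. The word CCAAT, searched on both strands and not overlapping TTTGAA in its letters, lay in 9 of 13 mitotic kinesins (69.2%), 3 of 10 transport motors (30.0%) and 35.8% of tested genes. Kif11 and Kif15 both held TTTGAA, as did Kif14, Kif22 and Kif2c. The Kif15 window ran into the gene, and its longest stretch outside annotated exons, 45 bases, did not hold the word. The windows of Kif14, Kif2c and Kif4 lay inside the gene as GENCODE annotates it, as did those of Kif17 and Kif27. No base of the Kif4 window, which held CCAAT, lay outside annotated exons. The shares above are therefore not of promoters alone. A match describes letters in these windows and is not a site in use.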

How the data were processed

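The authors deposited raw, whole-number read counts per gene, one table per library. The submitters' processing notes name FastQC, STAR, HTSeq, DESeq2 and mm10. No version, annotation release or strand setting is given in the sources used here. Per the labels' protocols, cDNA came from a SMARTer kit after depletion of ribosomal RNA. The 5 summary lines, which name no gene, entered neither library sizes nor tests. Reads outside annotated genes made up 8.43% to 17.2% of entries, and reads without a unique alignment 30.5% to 37.3%. Whether such reads lowered the count of any kinesin gene was not tested.

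Symbols and coordinates came from GENCODE M21 on GRCm38 (mm10), which matched 47224 identifiers. Counts were filtered with filterByExpr (minimum count of 10), scaled with TMM and tested with edgeR 4.0.16's quasi-likelihood F test in R 4.3.3, two-sided, without a block, with Benjamini-Hochberg adjustment over all 15573 genes tested and a threshold of 0.05. The fit was tested on simulated data. CPM used TMM-scaled library sizes, standard errors were derived from the F statistic, and 95% intervals used the fit's 8.02 degrees of freedom. RPKM divided CPM by union exon length. Alternatives were DESeq2 1.42.0, limma-voom 3.58.1, RLE and upper-quartile factors, no filter, a stricter filter (2 CPM or more in 3 libraries), the replicate block, an offset for GC content and length, both together, and each library left out.

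The kinesin genes, their roles, the partner and marker lists and the alternatives were chosen with earlier results of these data known. A fit without either library 2 was chosen after seeing the data. The named genes were 6 transport and mitotic motors set by name (Kif1a, Kif3a, Kif5a, Kif11, Kif20a and Kif23), the other transport motors and light chains, every called kinesin, and up to 4 called genes with the smallest p from each partner list. Libraries of the same number deviated alike from their group means, with correlations of 0.33, 0.36 and 0.44, against -0.27 to -0.04 for other pairs. Deviations within a group cancel out, so positive values for same-numbered pairs force negative ones among the other pairs. The pairing is inferred from these values, since no label gives the meaning of a number. Some genes that this rule or an overlap would name are not reported here.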

Additional observations from a re-analysis of the deposited data

How the results depend on the processing

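Kif13a, Kif3c, Kifc3, Klc4 and Kif15 kept their calls under all 16 alternatives, and Kif16b, Kif7, Kif26a and Kifc2 lost theirs in 2, 2, 7 and 8. With the replicate block, 4820 genes were called, 5 kinesin genes higher and 5 lower, and Kif6 was added (adjusted p = 0.0381), though not when the offset was used as well (0.0535). The log2 fold change of Kif3a turned to 0.081 with upper-quartile factors. That of Kif5a turned to -0.006 with no low-count filter, -0.026 with the GC and length offset, -0.031 with that offset and the replicate block, and -0.097 in libraries numbered 1 and 3. Leaving out each library in turn gave Kif5a -0.086 to 0.106, 1768 to 3888 genes called, and 2 to 5 kinesin genes higher and 3 to 5 lower. The lowest total came without shControl library 3, followed by 2018 without shControl library 1 and 2171 without shUHRF1 library 3. The kinesin genes higher were 2 without shControl library 3 or shUHRF1 library 3, and those lower were 3 without shControl library 1 or shUHRF1 library 3.

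Calls split into 1807 higher and 1928 lower in all genes. Upper-quartile factors gave 2512 and 1378 with a median log2 fold change of 0.14, so relative to that median Kif3a stood below and Kif11 above. The offset gave 1527 and 2548. The cause of these shifts was not tested. The mitotic kinesins had at most 480 reads per library in all, and the difference detectable at that depth was not measured.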
